A study of Homo sapiens with 96 samples.

Results

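Zinc finger mRNAs named ZNF followed by a number were followed across 96 libraries of A375, a human melanoma cell line that carries a mutated BRAF kinase. The members were selected on their raw counts. They are the rows of the count table whose symbol had that form and whose mean count was at least 100 over the 6 vehicle libraries taken at 0 h, after pretreatment with DMSO or with MAPKi. They numbered 117 of 534 rows with such a symbol and of 44659 rows in the table, and 35 of the 534 rows were at 0 in every library. Because the rule used the 0 h vehicle libraries, the counts in those libraries are given as a description. The mean count of the members over them ran from 101.5 to 4509.67. ZNF579 (101.5), ZNF629 (102.167) and ZNF26 (104.5) lay just above the threshold, and ZNF430 (99.5), ZNF224 (98.5) and ZNF420 (97.7) just below it.

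ZNF proteins are mostly C2H2 zinc finger proteins. Each finger is a short fold in which a pair of cysteines and a pair of histidines hold a zinc ion, and an array of fingers reads out a DNA sequence. In humans many of them also carry a KRAB box, which recruits the corepressor TRIM28 and with it the histone methyltransferase SETDB1 to silence chromatin, above all at transposable elements. Many of these genes lie in clusters on chromosome 19. Regulatory proteins of this kind are often made from mRNAs of low abundance and fast turnover.

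The cells received DMSO or MAPKi for 18 h. MAPKi was 500 nM vemurafenib, which inhibits BRAF, together with 500 nM cobimetinib, which inhibits the kinase MEK downstream of it. Each pretreatment was then crossed with 4 arms: vehicle, cycloheximide (100 µg/ml, which stops ribosomes on the mRNA), triptolide (25 µM, which stops transcription by RNA polymerase II), and triptolide with cycloheximide added 5 min before it. RNA was taken at 0, 1, 3 and 5 h, so 32 groups of 3 libraries resulted, all from A375 and all prepared with QuantSeq, which reads the 3′ end of polyadenylated RNA. The labels do not say whether the 3 libraries of a group came from separate cultures, so p-values measure the spread between these libraries, which may be technical.

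Library totals ran from 2381351 to 12520154 counts, with a median of 7143396. The smallest was MAPKi triptolide 0 h replicate 2. On the scale used for the triptolide arms the median ZNF mRNA stood at 115% of its group mean in that library against 95.5% and 86.5% in the other two, and the median of other mRNAs at 112% against 94.0% and 92.7%. The members' counts, medians and largest changes that use it as the 0 h level are therefore also given without it. All 5 mRNAs listed as a check of MAPKi fell in the MAPKi cells; DUSP6, a phosphatase induced by this pathway, went from 359 ± 54.6 to 1.07 ± 0.66 CPM (counts relative to the total of their library) at 0 h (SD, n = 3). Of 10 melanocyte markers, SOX10 (237 CPM in DMSO and 336 in MAPKi cells at 0 h) and MITF (352 and 488) were well expressed, S100A1 and S100B lay between 106 and 302, DCT was at 55.0 and 2133, the pigment genes PMEL, MLANA, TYR and TYRP1 were at or under 15.3, and GPR143 was at 0. Of 15 markers of keratinocytes, fibroblasts, leukocytes and endothelium, KRT10 was at 127 and 123 CPM and the other 14 were at or under 1.85.

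The part of the mRNA that most ZNF members share is the finger array itself. In the coding sequence of 1 annotated transcript per member (GENCODE release 44, GRCh38), 101 of 115 members matched a C2H2 finger at least once, 45 held 10 or more fingers, and 37 matched a pattern of the KRAB A box. ZNF252P could not be placed in the annotation and ZNF271P is a pseudogene, so these were left out of the sequence features. A finger with the linker to the next finger occurred 338 times in 68 members. The first such unit of 6 members described below is shown because these units are the stretch that the mRNAs have in common and they show how far its letters differ between members. Capitals mark the codons of the 2 cysteines and the 2 histidines that bind zinc. All 6 lie in the coding part of the last exon of their transcript.
ZNF551, chr19:57687116-57687193, plus strand: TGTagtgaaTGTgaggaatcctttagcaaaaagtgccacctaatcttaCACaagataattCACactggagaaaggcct
ZNF557, chr19:7082911-7082988, plus strand: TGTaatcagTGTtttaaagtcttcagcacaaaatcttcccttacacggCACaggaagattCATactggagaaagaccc
ZNF267, chr16:31915393-31915470, plus strand: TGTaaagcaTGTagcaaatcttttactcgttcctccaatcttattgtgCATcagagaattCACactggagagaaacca
ZNF121, chr19:9566600-9566677, minus strand: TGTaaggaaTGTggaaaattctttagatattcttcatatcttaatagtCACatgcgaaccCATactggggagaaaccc
ZNF408, chr11:46705108-46705185, plus strand: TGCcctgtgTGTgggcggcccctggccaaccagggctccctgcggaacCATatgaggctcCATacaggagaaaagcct
ZNF672, chr1:248847959-248848036, plus strand: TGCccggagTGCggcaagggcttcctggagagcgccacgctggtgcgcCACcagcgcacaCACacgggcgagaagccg

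The 6 units shared from 33 of 78 bases (ZNF267 with ZNF408, 42.3%) to 52 of 78 (ZNF267 with ZNF121, 66.7%). They differed most in the last base of the codon. Of 26 codons, 19 ended in A or T in ZNF267, 18 in ZNF121, 16 in ZNF557 and 15 in ZNF551, against 8 in ZNF408 and 1 in ZNF672. Over the whole coding sequence, the median share of codons ending in A or T was 51.1% for the members and 44.0% for the 6937 other mRNAs with a coding sequence among the 7220 tested ones whose mean count fell in the same range (101.5 to 4509.67). These 7220 are called equal-count mRNAs from here on, although their median count at 0 h was higher (335 against 196). The members encoded longer proteins (median 614 against 465 residues) and had longer annotated 3′ untranslated regions (2194 against 1498 nt). Chromosome 19 held 29 of 116 placed members and 5.40% of the equal-count mRNAs, and 17 of those 29 matched the KRAB pattern. Exons of 56 members overlapped another annotated gene, 39 of them on the opposite strand. Whether reads were counted by strand is not given in the sources used here, so counts of such members are uncertain where they are named. Similar finger arrays could also split reads between members. All 117 members passed the filter on low counts.

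The ZNF mRNAs together took 0.284% to 0.901% of a library, and the treatments ordered the groups. In vehicle the DMSO cells had a share of 0.536 ± 0.0100% at 0 h and 0.549 ± 0.00790% at 5 h, and the MAPKi cells 0.611 ± 0.0169% and 0.622 ± 0.0183% (SD, n = 3 throughout). With cycloheximide it reached 0.753 ± 0.00659% in DMSO and 0.863 ± 0.0376% in MAPKi cells at 5 h. With triptolide it came down to 0.289 ± 0.00425% and 0.309 ± 0.0138%, and with both drugs to 0.423 ± 0.0121% and 0.472 ± 0.0163%. At 5 h the 3 libraries of each arm did not overlap those of any other arm within a pretreatment. The vehicle groups of a pretreatment lay close to each other, at 0.524 to 0.549% for DMSO and 0.585 to 0.622% for MAPKi. A share depends on what the remaining mRNAs do, and the scaled levels below are set against 36 mRNAs whose share of counts rose under triptolide in every replicate, none of which was a member.

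When transcription was stopped, most ZNF mRNAs were lost within 5 h. The median member stood at 29.7, 31.1 and 27.8% of its 0 h level in the 3 DMSO libraries at 5 h, and at 25.5, 25.5 and 28.5% in the 3 MAPKi libraries. For the equal-count mRNAs the same libraries gave 75.9, 74.1 and 68.3% in DMSO and 61.6, 62.5 and 64.1% in MAPKi cells. The distance was already visible at 3 h, when the members were at 47.4 ± 6.13% and 40.1 ± 4.66% and the others at 80.6 ± 3.47% and 71.1 ± 3.48%. At 1 h they stood at 89.0 ± 3.35% and 76.6 ± 4.59%, against 95.8 ± 1.93% and 88.0 ± 2.06% for the others. With the smallest library left out of the 0 h level, the MAPKi medians at 1, 3 and 5 h were 83.3, 43.9 and 27.9% for members and 94.5, 77.4 and 67.6% for the others. In every library at 3 and 5 h the median of the members lay below the lowest median of the equal-count mRNAs at that time. In vehicle at 1 h the members stood at 91.3 ± 3.84% (DMSO) and 92.4 ± 3.51% (MAPKi) of the vehicle 0 h level. The others stood at 94.1 ± 2.16% and 93.7 ± 2.95%. The 1 h level of the members under triptolide in DMSO cells was thus close to that in vehicle. At 3 and 5 h of vehicle the members stood at 99.2 and 106% in DMSO and 97.4 and 105% in MAPKi cells.

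**Figure D1:**
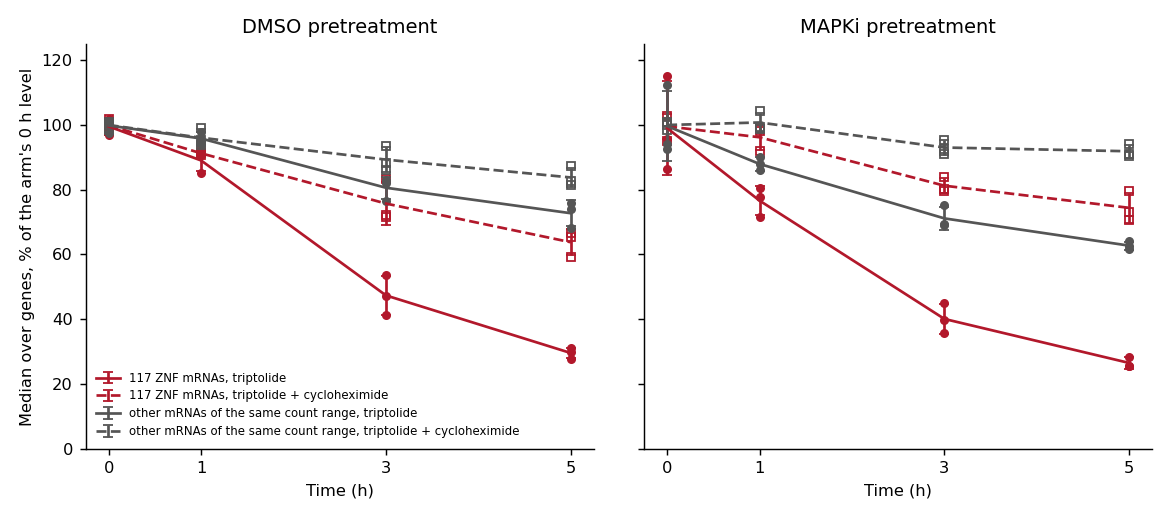
Median over genes of the level left after triptolide (solid lines, filled circles) or triptolide with cycloheximide (dashed lines, open squares), in percent of the same arm's mean at 0 h, against time in hours, for the 117 ZNF mRNAs (red) and 7220 other mRNAs of the same count range (grey). Points are libraries, lines join means and bars are SD (n = 3); at 5 h of triptolide the ZNF mRNAs lie between 25.5 and 31.1% and the others between 61.6 and 75.9%.

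In the fit of all genes, 110 of 117 ZNF mRNAs had fallen at 5 h of triptolide in DMSO cells and 114 in MAPKi cells, and 0 had risen (edgeR quasi-likelihood test with Benjamini-Hochberg adjustment over 14948 genes, adjusted p under 0.05). At an unadjusted p under 0.05, 111 and 114 were lower and 0 higher, as with DESeq2 after adjustment. The background was wide too. Lower calls made up 46.2% of all genes tested and 59.7% of equal-count mRNAs in DMSO cells, and 54.7% and 73.5% in MAPKi cells. Higher calls made up 1.47% and 0.097% in DMSO cells and 1.58% and 0.332% in MAPKi cells. The sizes set the members further apart, with a median log2 change of −1.71 (30.5% left) against −0.44 (73.6% left) for equal-count mRNAs in DMSO cells, and −1.90 (26.9%) against −0.64 (64.2%) in MAPKi cells. Less than 25% was left for 42 members (35.9%) and 5.73% of equal-count mRNAs in DMSO cells, and for 54 members (46.2%) and 8.91% in MAPKi cells. More than 50% was left for 32 and 23 members (27.4% and 19.7%), against 80.3% and 69.8%. Scaling by the trimmed mean of M values (TMM) centres the median of all genes near 0 (it moved from −0.53 to −0.00 for DMSO and −0.70 to 0.06 for MAPKi cells). With TMM, 87 and 91 members were lower and 2 higher in each pretreatment. Of all 14948 genes, 3170 and 3136 were then lower and 2061 and 3135 higher. The members' median lay 1.19 and 1.20 below that of all genes on the log2 scale under either scaling. A change of scaling shifts all genes nearly alike, so this distance is no separate check. Without MAPKi triptolide 0 h replicate 2, 111 members were lower in MAPKi cells, with a median of 27.1% left, under 25% left for 50 and over 50% for 26.

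Members of low count had lost more than members of high count, and the distance to other mRNAs was present in each range. With a mean count of 100 to 200, 61 members had a median of 25.2% left in DMSO cells, against 65.8% for other mRNAs of that range. In the ranges 200 to 400 (34 members) and 400 to 800 (14 members) it was 35.2% against 71.2% and 45.7% against 75.5%, and from 800 upwards (8 members) 43.8% against 81.2%. In MAPKi cells the 4 ranges gave 22.3, 27.9, 32.3 and 34.7% for members and 57.4, 61.9, 66.2 and 72.1% for the others. Without the smallest library the members had 23.4, 29.6, 35.6 and 37.2% left. Sorted by the ending of their codons, the members showed no steady order in DMSO cells. Those with under 30% of codons ending in A or T (29 members) had 33.7% left. The ranges 30 to 50%, 50 to 60% and 60% or more (37 members) had 27.2, 32.2 and 27.9% left. The equal-count mRNAs of these ranges had 78.0, 75.3, 73.5 and 66.0% left. From the first range to the last, log2 medians went from −1.57 to −1.84 for members and from −0.36 to −0.60 for the others. Across the 115 members with a coding sequence, Spearman's rho between the change and this share was −0.02 (−0.13 for equal-count mRNAs). For the difference between pretreatments it was −0.37 in the response to cycloheximide and 0.28 in the change under triptolide (−0.19 and 0.10). These are descriptions over genes measured in the same libraries.

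KRAB members had lower medians than members without a KRAB match. Of the 37, 36 had fallen in DMSO cells and 37 in MAPKi cells, with medians of 25.2% and 22.0% left. Of the 78 without a match, 72 and 75 had fallen, with 33.3% and 28.4% left. In the 5 h libraries the median KRAB member stood at 23.2 ± 4.34% in DMSO and 21.7 ± 0.795% in MAPKi cells, and the median of the rest at 33.5 ± 3.53% and 28.9 ± 2.01% (SD, n = 3). Without the smallest library in the 0 h level, the MAPKi values were 22.3 ± 0.807% and 30.6 ± 1.82%. By number of fingers the medians in DMSO cells were 30.9% for 10 or more, 23.6% for 5 to 9, 43.6% for 1 to 4 and 45.9% for the 14 members with no match. These are descriptions of groups of genes with no test between them. The KRAB member of highest count, ZNF3, had a mean count of 393.833, and members without a match reached 4509.67 (ZNF106). Members of low count had lost more, so KRAB match and count are not separated in these medians. Whether KRAB members differ from the rest at equal count was not tested. The 60 members whose exons overlap no other gene had a median of 29.6% left in DMSO cells, and 58 of them had fallen, against 51 of the 56 that overlap.

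**Figure D2:**
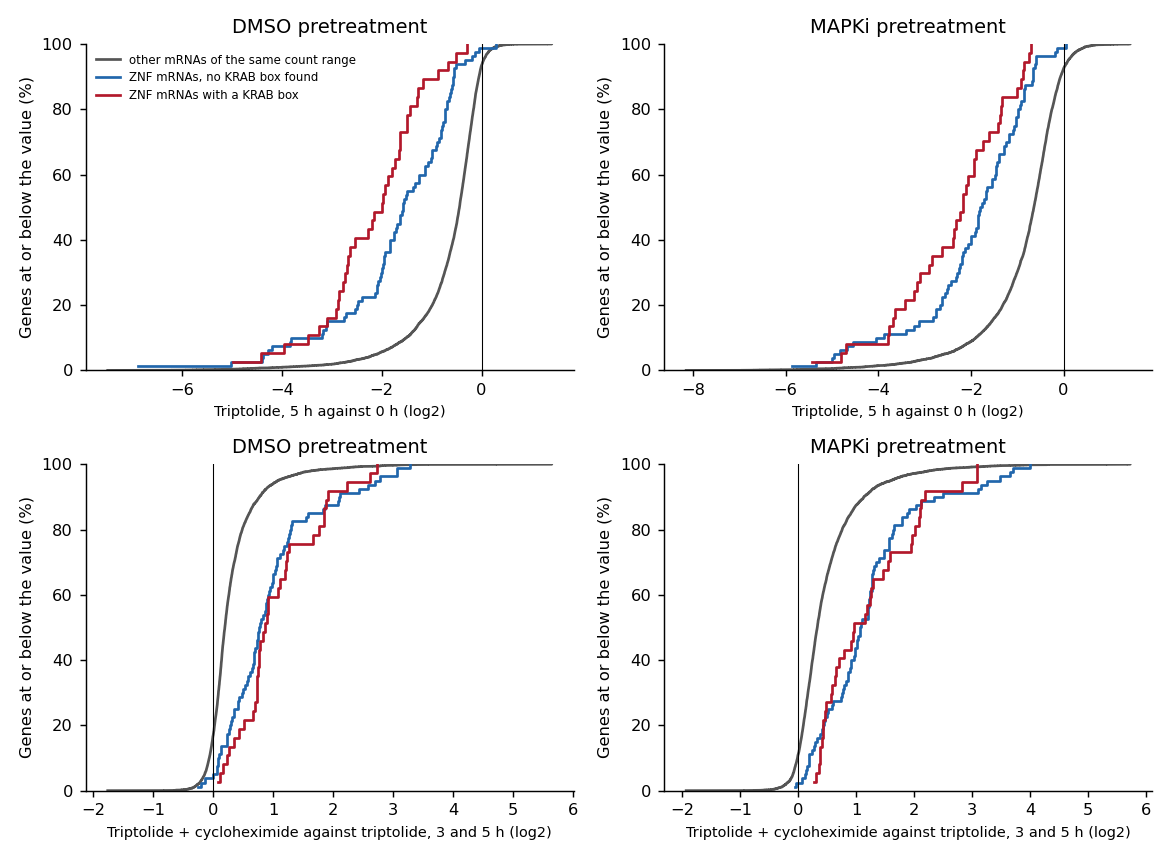
Cumulative share of genes (%) at or below a fitted log2 change, for ZNF mRNAs with a KRAB box (red, 37), ZNF mRNAs with no KRAB match (blue, 78) and equal-count mRNAs (grey, 7220), by pretreatment. The top row plots 5 h against 0 h of triptolide and the bottom row triptolide with cycloheximide against triptolide alone at 3 and 5 h; both ZNF curves lie left of the grey curve in the top row (member medians −1.71 and −1.90) and right of it in the bottom row (0.80 and 1.07).

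The mRNA of ZNF217 (chromosome 20, 53567071 to 53609907), which encodes a transcriptional repressor known as an oncogene in breast cancer, fell furthest of the members in DMSO cells. It had 157, 145 and 163 normalised counts at 0 h of triptolide, and 18.1, 12.6 and 22.3 at 3 h. At 5 h it had 1.48, 2.36 and 0, from 2, 3 and 0 raw counts. The fitted log2 change was −6.89 ± 0.38 (SE derived from the test statistic), adjusted p 2.69e-27. At so few counts this SE is smaller than the counting error, which the interval below describes. The ratio of the means was 0.825%, with an exact Poisson 95% interval for counting error of the 5 h count of 0.268 to 1.92%. In MAPKi cells it went from 130, 104 and 141 to 1.43, 1.15 and 8.47 normalised counts. A pair of antisense genes overlaps its exons.

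ZNF503 (chromosome 10, 75397830 to 75401764) and ZNF703 (chromosome 8, 37695782 to 37700019) encode related corepressors of the NET family, with a finger array reduced to an atypical finger. ZNF503 went from 336, 318 and 468 normalised counts at 0 h to 8.85, 17.3 and 8.79 at 5 h in DMSO cells, a log2 change of −5.02 ± 0.21, adjusted p 4.45e-34. It overlaps the antisense gene ZNF503-AS2 and a further annotated gene. ZNF703 went from 289, 501 and 246 to 2.86, 8.07 and 5.29 in MAPKi cells, a log2 change of −5.87 ± 0.32, adjusted p 4.49e-28, and its highest 0 h value came from the small library, without which the change was −5.56 (adjusted p 1.71e-26). The 5 h value rests on 23 raw counts in 3 libraries, and the ratio of the means was 1.57% (0.993 to 2.35%).

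The KRAB members ZNF551 (chromosome 19, 57681969 to 57717301) and ZNF557, whose finger units are printed above, came next. ZNF551 went from 164, 212 and 215 normalised counts to 5.16, 4.72 and 8.16 at 5 h in DMSO cells (log2 change −4.98 ± 0.29, adjusted p 4.57e-26), and its exons overlap an unnamed gene. ZNF557 went from 210, 165 and 199 to 2.86, 8.07 and 0 in MAPKi cells (−5.44 ± 0.30, adjusted p 8.53e-28, and −5.54 without the small library). Its 5 h value rests on 18 raw counts, and the ratio of the means was 1.91% (1.13 to 3.01%). In each of these comparisons every 5 h library lay below every 0 h library.

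A small number of ZNF mRNAs were not called lower. They were ZNF107, ZNF219, ZNF358, ZNF580, ZNF655, ZNF664 and ZNF706 in DMSO cells and ZNF655, ZNF664 and ZNF706 in MAPKi cells. ZNF664 (chromosome 12, 123971845 to 124015439) had 551, 526 and 585 normalised counts at 0 h and 480, 528 and 514 at 5 h in DMSO cells (−0.13 ± 0.14, adjusted p 0.494), and 507, 333 and 602 against 472, 574 and 491 in MAPKi cells (0.06 ± 0.15, adjusted p 0.756, and −0.14, adjusted p 0.494, without the small library). ZNF655 had 136, 96.3 and 97.3 against 142, 136 and 127 in DMSO cells (0.29 ± 0.19, adjusted p 0.225). Both overlap exons of neighbouring genes. ZNF706, which encodes a very short protein of 76 residues, varied too much between libraries for a narrow estimate: 455, 300 and 787 normalised counts at 0 h and 347, 515 and 636 at 5 h in DMSO cells (−0.05 ± 0.45, adjusted p 0.951). ZNF580 had 191, 205 and 173 against 193, 156 and 148 (−0.19 ± 0.16, adjusted p 0.319) and overlaps ZNF581 and CCDC106. Under TMM scaling ZNF664 (adjusted p 0.038 in DMSO and 1.99e-05 in MAPKi cells) and ZNF655 (0.00059 and 0.0155) were called higher in both pretreatments.

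**Figure D3:**
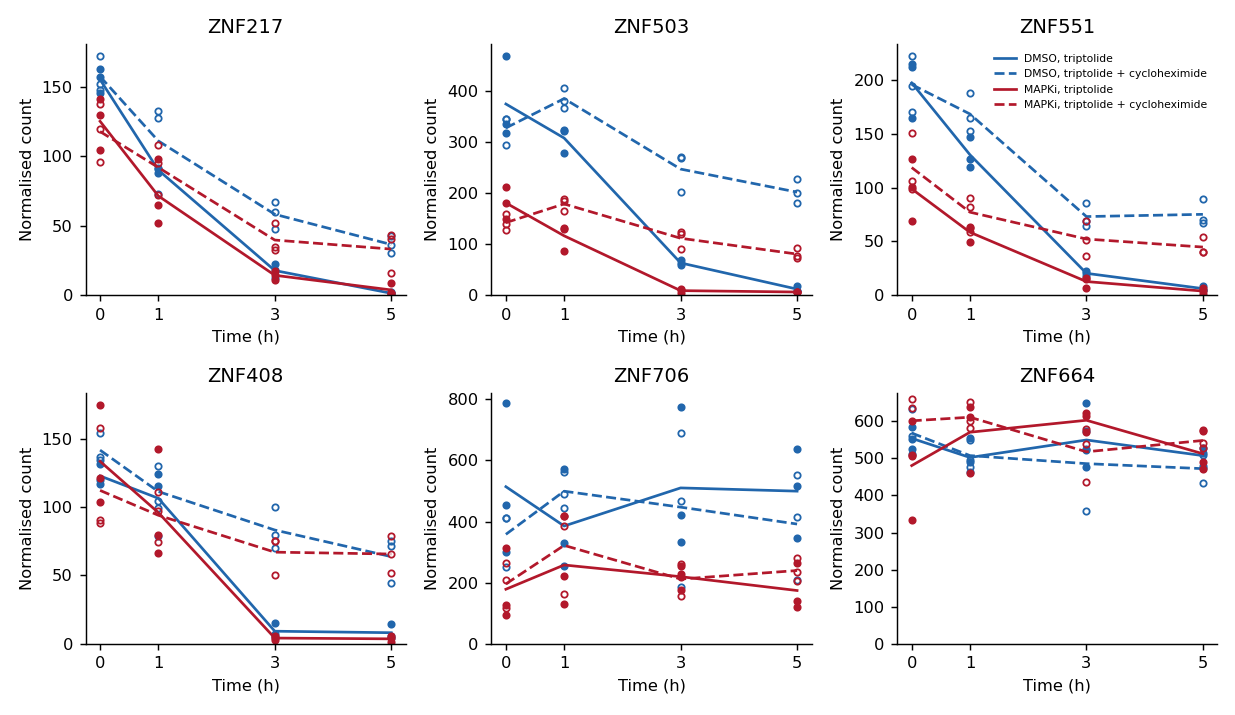
Normalised counts of 6 ZNF mRNAs against time in hours in the triptolide arm (filled points, solid lines) and the triptolide with cycloheximide arm (open points, dashed lines) of DMSO (blue) and MAPKi (red) cells; points are libraries and lines join the means of 3. ZNF217, ZNF503, ZNF551 and ZNF408 approach 0 by 5 h of triptolide and stay higher with cycloheximide, whereas ZNF664 keeps 472 to 574 normalised counts at 5 h of triptolide and ZNF706 is scattered.

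The comparison of triptolide with and without cycloheximide asks how much of this loss needs ongoing translation. With cycloheximide the median member kept 66.7, 59.2 and 65.4% of its 0 h level at 5 h in the 3 DMSO libraries and 73.0, 70.7 and 79.5% in the 3 MAPKi libraries, compared with the 27.8 to 31.1% and 25.5 to 28.5% that triptolide alone left. The equal-count mRNAs kept 83.8 ± 3.05% and 91.9 ± 2.06%. The difference built up with time, from 0.06 ± 0.04 on the log2 scale at 1 h to 0.66 ± 0.07 at 3 h and 0.96 ± 0.19 at 5 h in DMSO cells, and from 0.15 ± 0.04 to 0.85 ± 0.13 and 1.23 ± 0.05 in MAPKi cells. For the equal-count mRNAs the 5 h difference was 0.25 ± 0.10 and 0.44 ± 0.04 (medians over genes, SD over 3 differences of equally numbered libraries).

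Over 3 and 5 h, 97 of 117 ZNF mRNAs were higher with cycloheximide under triptolide in DMSO cells and 104 in MAPKi cells, and 0 were called lower (edgeR, adjusted p under 0.05). At an unadjusted p under 0.05, 100 and 106 were higher and 0 lower, and DESeq2 called 97 and 104 higher and 0 lower. The higher share was 28.4% of all genes and 38.9% of equal-count mRNAs in DMSO cells, and 41.4% and 59.2% in MAPKi cells, and the lower share 0.468% and 0.277%, and 0.535% and 0.346%. The median log2 difference was 0.80 against 0.20 for equal-count mRNAs in DMSO cells, and 1.07 against 0.33 in MAPKi cells. Of the 117 members 93 (79.5%) were called higher in both pretreatments, against 36.0% of the equal-count mRNAs. These comparisons share the triptolide 5 h libraries with the comparison against 0 h, so the calls are not independent of it. In the 4 count ranges named above the members reached 185, 168, 155 and 139% of the triptolide value in DMSO cells and the others 122, 116, 113 and 110%. In MAPKi cells the members reached 210, 228, 208 and 199% and the others 133, 127, 124 and 119%. Among the 60 members without an overlapping gene, 51 and 56 were higher. Under TMM scaling 85 and 79 members were higher and 3 and 4 lower. Of all 14948 genes, 2238 and 2825 were then higher and 1044 and 2261 lower.

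The largest differences of the members in DMSO cells were those of ZNF217, ZNF408 and ZNF503, and in MAPKi cells those of ZNF408, ZNF503 and ZNF830. ZNF408 (chromosome 11, 46701030 to 46705912), a gene mutated in inherited retinal disease, had 3.93 to 15.2 normalised counts (median 6.67) in the 6 triptolide libraries of DMSO cells at 3 and 5 h. With cycloheximide the 6 libraries had 44.1 to 99.7 (median 73.5), a log2 difference of 3.07 ± 0.23, adjusted p 1.81e-19. In MAPKi cells the same comparison went from 1.06 to 5.72 (median 4.05) up to 50.5 to 79.1 (median 70.4), a difference of 4.00 ± 0.27, adjusted p 7.26e-23. The groups did not overlap in either pretreatment.

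ZNF503 had 8.79 to 68.5 normalised counts (median 37.6) with triptolide and 179 to 271 (median 214) with both drugs in DMSO cells, a log2 difference of 3.06 ± 0.14, adjusted p 3.69e-32. In MAPKi cells it had 4.22 to 12.2 (median 6.32) and 72.0 to 124 (median 90.7), a difference of 3.71 ± 0.17, adjusted p 1.26e-31. ZNF217 had 0 to 22.3 (median 7.47) and 29.9 to 66.9 (median 45.3) in DMSO cells, 3.28 ± 0.26, adjusted p 1.1e-18. ZNF830 (chromosome 17, 34961540 to 34963777) had 4.29 to 19.3 (median 11.3) and 93.7 to 181 (median 156) in MAPKi cells, 3.66 ± 0.19, adjusted p 7.55e-29. None of these pairs of groups overlapped. The level of ZNF503 with both drugs still lay below that at 0 h of triptolide in DMSO cells, with 226, 199 and 179 at 5 h against 336, 318 and 468.

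The 5 most abundant members took different courses. ZNF106 (chromosome 15, 42412823 to 42491141), an RNA-binding protein, had a mean raw count of 4359 over all libraries and fell by 0.56 in DMSO and by 0.93 in MAPKi cells on the log2 scale at 5 h of triptolide. Its difference with cycloheximide under triptolide was not called in either pretreatment. ZNF207 (1513), a microtubule-binding protein of the mitotic spindle, fell by 0.52 and 0.68. ZNF428 (1178), which overlaps SRRM5 on the opposite strand, fell by 0.59 and 0.67. ZNF24 (1583), a SCAN domain factor, fell by 1.75 and 2.51 and rose with cycloheximide under triptolide by 0.93 and 1.64. ZNF827 (1237), which recruits the NuRD complex at telomeres, fell by 2.10 and 2.33 and rose by 1.30 and 1.56. ZNF106 overlaps CAPN3 and ZNF207 overlaps a microRNA gene.

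Cycloheximide alone, with transcription running, asks whether blocking translation changes the level of these mRNAs. The median log2 difference from vehicle of the same time in DMSO cells was 0.06 ± 0.07 at 1 h, 0.22 ± 0.09 at 3 h and 0.41 ± 0.03 at 5 h, and in MAPKi cells 0.03 ± 0.09, 0.24 ± 0.05 and 0.37 ± 0.05. For the equal-count mRNAs the 5 h values were 0.02 ± 0.02 and −0.02 ± 0.02. These comparisons used TMM scaling, which centres the median of all genes near 0, so the counts of rises and falls depend on it. On the scale of the triptolide arms, the median member stood at 161 ± 2.78% of its 0 h level at 5 h of cycloheximide in DMSO and 190 ± 15.7% in MAPKi cells. The equal-count median stood at 118 ± 3.57% and 134 ± 7.64%. Calls were not made on that scale. Over 3 and 5 h, 62 members rose and 8 fell in DMSO cells, and 65 rose and 5 fell in MAPKi cells. The share that rose was 18.3% of all genes and 23.8% of equal-count mRNAs in DMSO cells, and 15.9% and 21.5% in MAPKi cells, while 13.5% of all genes and 20.2% of equal-count mRNAs fell in DMSO cells and 13.9% and 22.1% in MAPKi cells. The member medians were 0.35 and 0.33, those of equal-count mRNAs −0.01 and −0.03. In both pretreatments 43 members rose (36.8%), against 13.4% of equal-count mRNAs. Without replicate 3 the count in MAPKi cells was 42.

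ZNF608 (chromosome 5, 124636913 to 124748807) rose most in DMSO cells. Its 6 vehicle libraries at 3 and 5 h had 23.9 to 75.8 CPM (median 39.9) and its 6 cycloheximide libraries 110 to 271 (median 159), a log2 difference of 2.02 ± 0.13, adjusted p 2.58e-22. ZNF267, a KRAB member, had 18.5 to 23.5 CPM (median 21.3) and 57.0 to 84.0 (median 71.8) in DMSO cells, 1.74 ± 0.13, adjusted p 3.16e-19. In MAPKi cells it had 12.4 to 18.0 (median 15.7) and 37.5 to 56.3 (median 43.6), 1.55 ± 0.13, adjusted p 2.26e-16.

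ZNF551 also rose in both pretreatments, with 15.5 to 30.6 CPM (median 25.6) in vehicle and 60.4 to 87.1 (median 75.0) with cycloheximide in DMSO cells, 1.60 ± 0.14, adjusted p 1.15e-15, and a difference of 1.43 ± 0.15 in MAPKi cells. ZNF276 (chromosome 16, 89720400 to 89740925), which overlaps FANCA, led in MAPKi cells with 21.1 to 32.6 (median 28.0) against 70.3 to 106 (median 82.4), 1.61 ± 0.11, adjusted p 4.13e-22. The groups of these 4 mRNAs did not overlap.

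Some members went the other way. ZNF652 (chromosome 17, 49289206 to 49362473), a repressor that partners with the corepressor CBFA2T3, had 53.1 to 64.9 CPM (median 59.6) in vehicle and 24.5 to 40.6 (median 31.2) with cycloheximide in DMSO cells, a log2 difference of −0.92 ± 0.09, adjusted p 6.89e-15. An antisense gene and a further gene overlap its exons. ZNF362 and ZNF618 fell by 0.63 and 0.62 in DMSO cells. In MAPKi cells ZNF431, ZNF300 and ZNF664 fell by 0.40, 0.39 and 0.32 with adjusted p of 0.0279, 0.0232 and 0.0169. These calls were lost without replicate 1 (0.135 for ZNF431 and 0.117 for ZNF664), without replicate 2 (0.19 for ZNF431 and 0.177 for ZNF300) and without replicate 3 (0.176 for ZNF300 and 0.226 for ZNF664).

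**Figure D4:**
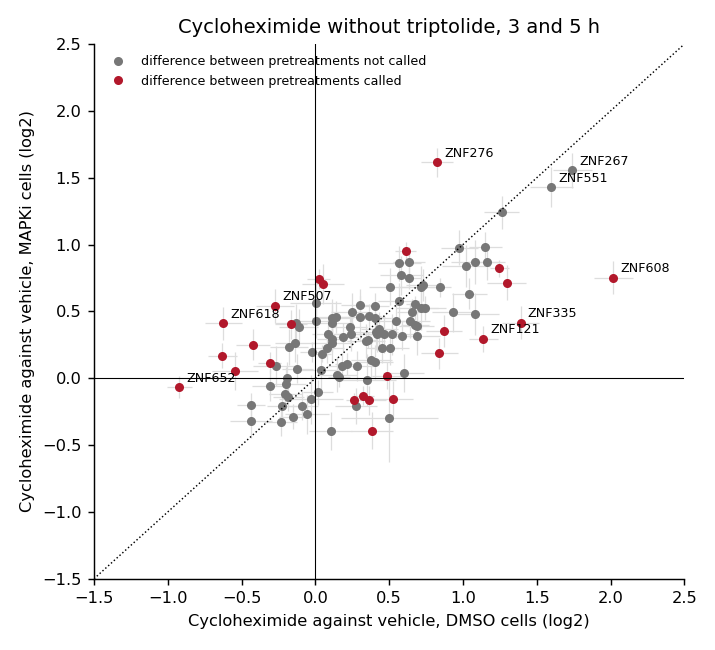
Fitted log2 difference between cycloheximide and vehicle at 3 and 5 h in DMSO cells (x axis) and MAPKi cells (y axis), 1 point for each of 117 ZNF mRNAs, with standard errors as bars; the dotted line marks equal differences and red marks the 25 members whose difference between pretreatments was called. ZNF608 lies far right of the line (2.02 in DMSO cells) and ZNF276 above it (1.61 in MAPKi cells).

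The response to cycloheximide differed between pretreatments for 25 members, 12 with a higher and 13 with a lower difference in MAPKi cells. The background called in either direction was 11.2% of all genes (4.64% higher and 6.59% lower) and 16.9% of equal-count mRNAs (6.9% and 10%). Without replicate 3 the count was 13 and without replicate 1 it was 16. ZNF335 (chromosome 20, 45948660 to 45972203), a component of a histone H3 lysine methyltransferase complex, had 30.8 to 44.4 CPM (median 40.3) in vehicle and 60.1 to 153 (median 105) with cycloheximide in DMSO cells. In MAPKi cells it had 29.6 to 53.7 (median 35.2) and 46.3 to 53.0 (median 49.9). The difference between the log2 responses was −0.97, adjusted p 2.62e-05. ZNF121 reached 164 to 259 (median 195) with cycloheximide in DMSO cells, and in MAPKi cells went from 36.8 to 49.1 (median 46.5) in vehicle to 47.4 to 65.7 (median 54.1), a difference of −0.84, adjusted p 2.37e-06. ZNF608 (−1.27, adjusted p 1.14e-07) also responded less in MAPKi cells, and ZNF618 (1.03, 8.16e-06), ZNF652 (0.86, 5.96e-08) and ZNF507 (0.82, 0.000701) had a higher difference there.

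MAPKi moved ZNF mRNAs in both directions. Over the vehicle libraries of 1, 3 and 5 h, 36 rose and 47 fell of 117. The choice of members did not use these libraries. Its mean ran over the 0 h libraries of both pretreatments, so an mRNA that is high in only 1 pretreatment could pass. The equal-count mRNAs were bounded by the same mean. All genes tested rose in 33.4% and fell in 31.3%, and equal-count mRNAs in 31.5% and 45.6%. The member shares (30.8% and 40.2%) lay near these, and the medians were −0.01 for members, −0.12 for equal-count mRNAs and 0.05 for all genes. The quartiles of the members were −0.38 and 0.29. KRAB members rose in 11 and fell in 14 of 37 cases.

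ZNF608 rose most, from 23.9 to 75.8 CPM (median 34.1) in 9 DMSO libraries to 104 to 187 (median 133) in 9 MAPKi libraries, a log2 difference of 1.87 ± 0.11, adjusted p 1.79e-26. ZNF219 (chromosome 14, 21090077 to 21104722), which overlaps ARHGEF40 and TMEM253, had 4.34 to 10.7 (median 7.66) and 17.3 to 32 (median 22.7), 1.67 ± 0.16, adjusted p 4.77e-15. ZNF654 (chromosome 3, 88059255 to 88144660), which overlaps CGGBP1, had 16.9 to 29.6 (median 22.8) and 47.9 to 77.0 (median 64.7), 1.43 ± 0.10, adjusted p 8.82e-23. The groups of each of these mRNAs did not overlap.

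The largest falls were of similar size to each other. ZNF121 had 75.8 to 108 CPM (median 87.7) in DMSO and 30.8 to 49.1 (median 44.6) in MAPKi cells, a log2 difference of −1.06 ± 0.08, adjusted p 2.34e-20. ZNF532 (chromosome 18, 58862600 to 58986480), a partner of NUTM1 in fusions of NUT carcinoma, had 22.9 to 37.5 (median 33.4) and 13.7 to 18.7 (median 14.5), −1.06 ± 0.11, adjusted p 3.96e-14. ZNF551 had 15.5 to 30.6 (median 26.2) and 9.88 to 16.1 (median 12.4), −1.04 ± 0.13, adjusted p 1.35e-11. The groups of ZNF121 and ZNF532 did not overlap, and the highest MAPKi library of ZNF551 lay above its lowest DMSO library. Of the abundant members ZNF428, ZNF827 and ZNF106 rose by 0.59, 0.54 and 0.41 and ZNF207 fell by 0.44.

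**Figure D5:**
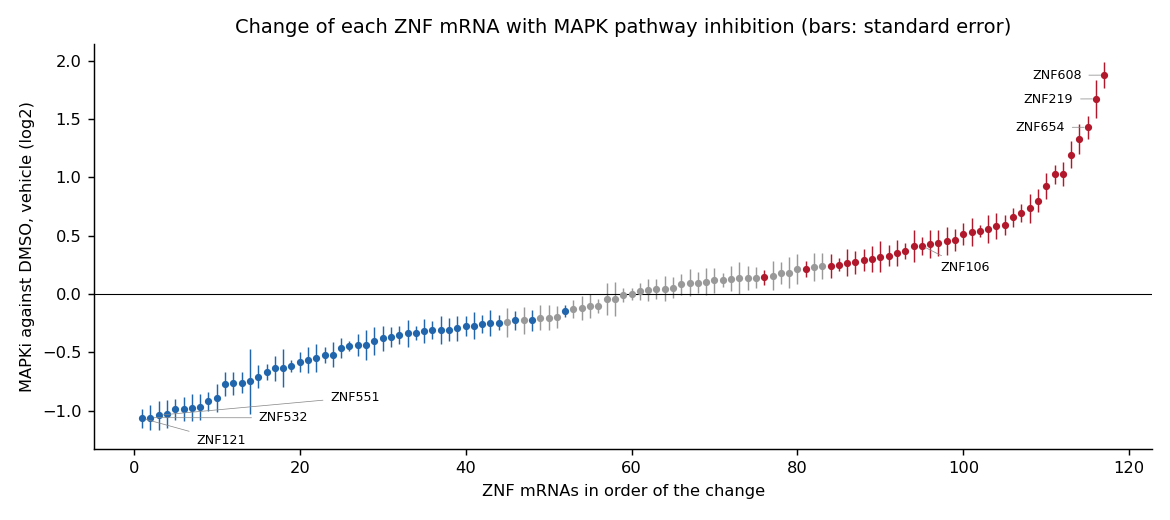
Fitted log2 difference between MAPKi and DMSO vehicle libraries at 1, 3 and 5 h for each of 117 ZNF mRNAs, in order of the difference, with standard errors as bars. Red members were called higher (36), blue lower (47) and grey not called; the values run from −1.06 (ZNF121) to 1.87 (ZNF608).

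The loss under triptolide at 3 and 5 h differed between pretreatments for 13 members, of which 12 had lost more in MAPKi cells and 1 less. The background was 3.85% lower and 0.421% higher of all genes, and 6.68% and 0.36% of equal-count mRNAs. Without replicate 1 the count was 4 and without replicate 2 it was 5, of which 3 and 4 had lost more. Without MAPKi triptolide 0 h replicate 2 it was 7, of which 6 had lost more. With the groups compared alone it was 6, and all 6 had lost more. Scaling by TMM gave 5 lower and 2 higher, beside 187 and 186 of all 14948 genes. Scaling by mitochondrial ribosomal RNA gave 41 lower and 1 higher, beside 2864 and 56 of all genes. All 13 lacked a KRAB match, as did 78 of the 115 members with a coding sequence. ZNF672 (chromosome 1), whose finger unit holds 1 codon ending in A or T, had 109, 94.6 and 108 normalised counts at 3 h and 86.3, 65.3 and 52.1 at 5 h in DMSO cells, after 202, 202 and 198 at 0 h. In MAPKi cells it had 56.8, 52.5 and 73.1 and then 20.7, 28.3 and 21.2, after 223, 387 and 177. The difference between the log2 changes was −1.47 ± 0.24, adjusted p 9.22e-06. ZNF703 (−1.97 ± 0.35, adjusted p 6.56e-05) and ZNF579 (−1.83 ± 0.35, adjusted p 0.000261) had larger ones, and the call of ZNF703 was lost without replicate 1 (adjusted p 0.101). Without the small library the differences of ZNF672, ZNF703 and ZNF579 were −1.15, −1.66 and −1.69, with adjusted p of 0.000879, 0.00156 and 0.00249.

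ZNF581 was the member that had lost less in MAPKi cells. It went from 177, 186 and 186 normalised counts at 0 h to 9.59, 9.44 and 6.9 at 5 h in DMSO cells and from 243, 266 and 145 to 35.7, 37.5 and 73 in MAPKi cells, a difference of 1.27 ± 0.27, adjusted p 0.00146. Its exons overlap ZNF580 and CCDC106, and the call was lost without replicate 3 (adjusted p 0.169) and with the groups compared alone (0.0599). Without the small library the difference was 1.40 (adjusted p 0.00151). The difference made by cycloheximide under triptolide was larger in MAPKi cells for 17 members and smaller for ZNF581 (−1.40 ± 0.23, adjusted p 9.31e-06), with 6.82% and 0.294% of all genes and 12% and 0.222% of equal-count mRNAs called in these directions. Under TMM scaling the split was 9 and 4, beside 421 and 132 of all 14948 genes. Without replicate 1 the count was 10 members, and without replicate 2 it was 12. ZNF579 (1.40 ± 0.30, adjusted p 0.00101), ZNF672 (1.05 ± 0.19, 7.08e-05) and ZNF622 (1.00 ± 0.14, 2.35e-07) had the largest positive differences. ZNF622, whose protein takes part in maturation of the large ribosomal subunit, had 142, 146 and 96 normalised counts at 5 h of triptolide in DMSO cells and 36.5, 44.4 and 40.2 in MAPKi cells, against 370, 352 and 333 and 295, 219 and 339 with both drugs.

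Few members were called as changed between 1 and 5 h of vehicle. Of 117 members 8 rose and 3 fell over both pretreatments, against 2.37% and 2.9% of all genes and 3.31% and 4.83% of equal-count mRNAs. The KRAB members had a median log2 change of 0.24, and 32 of the 37 were above 0, whereas the median of the members without a match was −0.03. Of the 37, 4 were called higher and 0 lower. Relative to 0 h on the scale of the triptolide arms, the median KRAB member stood at 85.5 ± 2.88% at 1 h and 109 ± 4.99% at 5 h of vehicle in DMSO cells, and at 85.6 ± 2.55% and 111 ± 9.27% in MAPKi cells (SD, n = 3). Equal-count mRNAs had a smaller dip and return, with 94.1 ± 2.16% and 101 ± 3.61% in DMSO and 93.7 ± 2.95% and 101 ± 4.59% in MAPKi cells. The 0 h level here comes from the vehicle libraries on which the members were chosen, so these values are descriptions. ZNF431, ZNF234 and ZNF397 rose by 0.93, 0.73 and 0.59 on the log2 scale, and ZNF697, ZNF622 and ZNF462 fell by 0.56, 0.43 and 0.30. With a replicate number left out 3 to 5 members were called.

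Genes that work with or resemble the ZNF members were set beside them. Of 21 tested genes of the KRAB corepressor machinery, 15 had fallen at 5 h of triptolide in either pretreatment, with medians of −0.39 and −0.47 on the log2 scale (59.7% and 73.5% of equal-count mRNAs had fallen, with medians of −0.44 and −0.64). TRIM28, the protein that KRAB boxes bind, fell by 0.24 and 0.26. SETDB1, the methyltransferase, fell by 1.78 and 1.93 and was higher by 0.98 and 1.52 with cycloheximide under triptolide, where 9 and 17 of the 21 genes were higher beside 38.9% and 59.2% of equal-count mRNAs. With MAPKi 4 rose, DNMT3A (0.76) and ATRX (0.58) the most, and 8 fell, led by the maintenance methylation genes UHRF1 (−1.90) and DNMT1 (−1.05), beside 31.5% and 45.6% of equal-count mRNAs. With cycloheximide alone 7 of the 21 rose and 6 fell in DMSO cells, beside 23.8% and 20.2% of equal-count mRNAs. In MAPKi cells 8 rose and 4 fell, beside 21.5% and 22.1%. The medians were 0.09 and 0.04. Among the genes that rose were SETDB1 (0.95 and 0.50) and MORC3 (0.86 and 0.60).

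The 22 mRNAs of other C2H2 families (ZBTB, ZSCAN, ZKSCAN and ZFP symbols over the same count threshold) gave medians under triptolide close to those of the ZNF members. All 22 had fallen at 5 h of triptolide in both pretreatments (46.2% and 54.7% of all genes tested), with medians of 27.4% and 26.6% left, and 17 and 18 were higher with cycloheximide under triptolide (28.4% and 41.4% of all genes). ZBTB24, a factor of centromeric DNA methylation, fell by 3.68 and 4.63 and was higher by 2.00 and 3.18 with cycloheximide. With MAPKi 11 rose, ZBTB20 by 1.80, and 3 fell, ZFP91 by 0.81, where 33.4% of all genes rose and 31.3% fell. Their median change with MAPKi was 0.18, against −0.01 for the ZNF members, and with cycloheximide alone 0.21 and 0.18, against 0.35 and 0.33. These differences were not tested. Among the equal-count mRNAs outside the ZNF symbols, 87 matched the finger pattern. Of these 82 and 81 had fallen, with 37.1% and 31.4% left, and 67 and 76 were higher with cycloheximide under triptolide. The shares of all genes are those just given for both comparisons.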

How the data were processed

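Cytoplasmic RNA of A375 cells was measured with QuantSeq in 96 libraries, 3 in each of 32 groups taken from the labels. The authors deposited raw counts per gene for all libraries in 1 table. Per the labels and the study's methods, reads were trimmed with fastp 0.20.1, aligned with HISAT2 2.2.1 to GRCh38.p13 and counted with HTSeq 0.13.5. Use of strand or of molecular identifiers is not given in the sources used here, so intervals cover counting error only.

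Members, gene lists and tests were chosen with earlier results of these data known. Counts were fitted with edgeR 4.0.16 (R 4.3.3): 1 mean per group over all 96 libraries, genes kept by filterByExpr (14948), quasi-likelihood test, two-sided, Benjamini-Hochberg adjustment over all genes kept, called under 0.05. The standard error is the log2 change divided by the square root of the F statistic. For large falls that rest on few counts it can be smaller than the counting error. Vehicle and cycloheximide comparisons used TMM scaling. Triptolide comparisons used size factors from 36 genes. Their CPM, here relative to the plain library total, was at least 1.1 times the 0 h vehicle value at 3 and 5 h of triptolide in every replicate. The study's wording asks for 3 or 5 h, and both were required here. The 526 genes of the wider reading were an alternative. Library totals of 2381351 to 12520154 set the precision. On simulated counts for the decay comparison in DMSO cells (13411 genes), 90% of genes changed by 1 on the log2 scale and 13% of those changed by 0.5 were recovered. The simulation used a fixed dispersion not estimated from these data and left most genes unchanged, unlike triptolide. These rates are therefore not the power of the real comparison.

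Named with values were the 5 members of highest mean count, the 3 with the smallest change under triptolide, and the members at the count threshold. So were the 3 largest rises and the 3 largest falls called in each comparison and alike in 3 of 3 replicates. From the corepressor and other C2H2 lists, some of the 2 largest called changes in each direction were named, and not every direction is covered. KRAB boxes, fingers and linkers were residue patterns searched in the translated coding sequence of GENCODE release 44, which miss divergent copies. 357 annotated genes matched the KRAB pattern. Alternatives were DESeq2 1.42.0 as test and for size factors, other scalings, no filter, other 0 h references, the groups compared alone, a replicate block, and each replicate left out. Protein sequences were not used here.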

Additional observations from a re-analysis of the deposited data

Results flagged for a closer look

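For 14 values of 11 ZNF mRNAs, the response to a drug differed between DMSO and MAPKi cells in a test of the difference itself (edgeR, adjusted p under 0.05, 3 libraries a group), among the members with the largest such difference. Values are log2 responses in MAPKi minus DMSO cells, and their causes were not tested. For cycloheximide against vehicle, 12 of 117 members were called higher and 13 lower, beside 6.9% and 10% of equal-count mRNAs. For the change under triptolide 12 were lower and 1 higher, beside 6.68% and 0.36%. For cycloheximide under triptolide 17 were higher and 1 lower, beside 12% and 0.222%. Whether the members differ from these shares was not tested. The response to cycloheximide against vehicle differed by −1.27 for ZNF608, −0.97 for ZNF335 and −0.84 for ZNF121, and by 1.03 for ZNF618, 0.86 for ZNF652 and 0.82 for ZNF507. The change under triptolide differed by −1.97 for ZNF703, −1.83 for ZNF579 and −1.47 for ZNF672, and by 1.27 for ZNF581. The call of ZNF703 was lost without replicate 1 and that of ZNF581 without replicate 3 and with the groups compared alone. The 0 h reference of these 4 values includes the smallest library, MAPKi triptolide 0 h replicate 2.

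The difference that cycloheximide made under triptolide differed by −1.40 for ZNF581, 1.40 for ZNF579, 1.05 for ZNF672 and 1.00 for ZNF622. It shares the triptolide libraries of 3 and 5 h with the comparison before, so opposite signs for ZNF581, ZNF579 and ZNF672 in the 2 comparisons are not separate observations.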

How the results depend on the processing

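Of the counts of called members recomputed under an alternative, 99 stayed within 1.5 times the reported count and 13 did not. With a replicate left out, the members that rose with cycloheximide in MAPKi cells numbered 42 to 56 (65 reported), those whose response to cycloheximide differed between pretreatments 13 to 21 (25), those that changed in vehicle 3 to 5 (11), those whose loss under triptolide differed 4 to 16 (13), and those whose difference with cycloheximide under triptolide differed 10 to 16 (18). The count for the differing loss was 7 with TMM, 6 with the groups compared alone, 42 with mitochondrial ribosomal RNA, and 7 without MAPKi triptolide 0 h replicate 2, an alternative chosen after seeing the data. With mitochondrial ribosomal RNA, 2864 of all 14948 genes were called lower. For 50 called values of named members, the alternatives gave 483 values, of which 464 kept the call, 19 lost it and 0 changed sign. For 6 values that were not called, all under triptolide, 6 of 75 gained a call (ZNF664 and ZNF655). Members that fell under triptolide numbered 87 to 111 in DMSO and 91 to 115 in MAPKi cells over the alternatives. Replicate numbers did not pair the libraries: deviations of equally numbered libraries correlated from −0.218 to 0.236 (median 0.009). With a replicate block the counts moved by at most 2, to 14 for the differing loss and 13 for vehicle, and none changed by over 1.5 times. Counts under about 25 at 5 h of triptolide limit the largest falls.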
